A study of Mus musculus with 25 samples.

Results

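WT CD11c+ interstitial macrophages (IM) from tumor-bearing lungs of IL9R chimeras were compared with WT CD11c+ IM from ARG1 chimeras. The libraries were chosen by their labels alone, and they were 5 of the 25 RNA-seq libraries of the series, 2 from IL9R chimeras and 3 from ARG1 chimeras. A mixed bone marrow chimera is a host whose blood cells are rebuilt with marrow of a pair of donors, so that mutant and WT cells develop side by side in 1 animal. The IL9R chimeras were B6/BoyJ hosts given Il9r-/- and BoyJ WT marrow. The ARG1 chimeras carried cells labelled WT and cells labelled ARG1 CKO (a conditional knockout). The driver of that knockout and the strains of host and donors in the ARG1 chimeras are not stated in the labels. All 5 libraries therefore hold cells labelled WT from hosts bearing B16 tumors, a mouse melanoma line, and differ in the mutant marrow beside which the cells developed. Chimera kind, donor strain, host and group of animals cannot be told apart in this comparison. The study was designed to find changes inside macrophages that depend on IL-9 signaling, and this contrast sets its WT cells against each other.

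IM are the macrophages of the lung tissue outside the air spaces, where alveolar macrophages live. Macrophages that sense microbial products or cell damage activate NF-kB and AP-1 transcription factors, which switch on cytokine genes such as Il6, Il1a and Tnf. Interferons act through STAT and IRF transcription factors on a motif named ISRE and raise antiviral genes such as the Oas family. Arg1 is an enzyme of macrophages that splits arginine into ornithine and urea, and IL-9 signals through its receptor and JAK and STAT proteins.

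Promoter windows of 3 genes are shown because they belong to the cytokine and interferon lists described below and hold a motif of those pathways. They run from 250 bases before to 50 bases after the start of the gene (RefSeq, GRCm38.p6). Capitals mark a match to GGGANTTTCC (kB), TGANTCA (AP-1) or GAAANNGAAA (ISRE), searched on both strands. The window of Il6 (chr5:30012864-30013163, plus strand) holds a kB match 44 bases and an AP-1 match 249 bases before the start. The window of Il1a (chr2:129309923-129310222, minus strand) holds an AP-1 match 12 bases before it. The window of Oas1a (chr5:120907476-120907775, minus strand) holds 2 ISRE matches that overlap, at 20 and 14 bases before it.
Il6: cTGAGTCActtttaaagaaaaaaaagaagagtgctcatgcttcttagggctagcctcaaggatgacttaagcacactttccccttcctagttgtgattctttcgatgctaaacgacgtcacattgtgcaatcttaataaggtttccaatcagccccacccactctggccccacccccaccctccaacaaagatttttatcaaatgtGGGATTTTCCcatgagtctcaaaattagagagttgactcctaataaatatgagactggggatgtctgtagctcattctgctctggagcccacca
Il1a: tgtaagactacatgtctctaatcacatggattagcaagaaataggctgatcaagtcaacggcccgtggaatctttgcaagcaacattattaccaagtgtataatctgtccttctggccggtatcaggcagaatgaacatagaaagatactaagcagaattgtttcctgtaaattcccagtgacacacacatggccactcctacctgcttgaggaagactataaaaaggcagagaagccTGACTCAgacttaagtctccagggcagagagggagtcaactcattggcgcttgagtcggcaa
Oas1a: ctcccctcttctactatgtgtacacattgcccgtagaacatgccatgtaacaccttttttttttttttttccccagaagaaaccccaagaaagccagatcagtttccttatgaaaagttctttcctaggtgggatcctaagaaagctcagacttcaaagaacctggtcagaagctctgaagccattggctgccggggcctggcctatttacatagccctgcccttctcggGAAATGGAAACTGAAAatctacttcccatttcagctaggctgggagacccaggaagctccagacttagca
Of 32851 mouse windows of this length, 0.411% hold the kB motif, 7.81% the AP-1 motif and 3.44% the ISRE motif. A match is only a description of these letters.

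No gene passed the test between the chimeras. The edgeR quasi-likelihood test over 13434 genes called 0% of them at an adjusted p under 0.05, with a smallest adjusted p of 0.204. At an unadjusted p under 0.05 there were 681 genes higher (5.07%) and 622 lower (4.63%) in IL9R chimeras. Together these were 1303 genes, where 672 would be expected if no gene differed. Genes are not independent, so no conclusion is drawn from that excess. DESeq2 called 64 genes (36 higher, 28 lower), and limma voom called 0. Some DESeq2 calls had extreme log2 fold changes, such as Gen1 (-21.4), Pkia (20.9) and Pdk4 (22.9), and are not described here. A fit of these 5 libraries alone called 2, Il1a (adjusted p = 0.0423) and Il6 (adjusted p = 0.0461). Il6 was also among the DESeq2 calls, and Il1a was not. Differences are therefore given below as measured values, with the position of each library, and log2 fold changes are IL9R over ARG1. Counts of genes whose libraries do not overlap are to be read against all genes tested, of which 12.4% had both IL9R libraries above all ARG1 libraries and 12.9% had both below. With 2 against 3 libraries an exact two-sided permutation test of a single gene cannot go below 0.1.

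The libraries held 36083478 to 56904167 counts and 12270 to 12646 detected genes. The 15 IM markers, among them the complement genes C1qa to C1qc, Mertk and Csf1r, were all detected. Their summed level was 64040 and 73910 CPM (counts scaled to a library total of 1e+06) in IL9R libraries and 65310, 67040 and 67170 CPM in ARG1 libraries. Itgax, the gene of CD11c, stood at 428 CPM in both IL9R libraries and at 191, 323 and 335 CPM in ARG1 libraries, against 11.1 to 32.8 CPM in the WT CD11c- libraries of both chimeras. Itgax was thus far above the CD11c- level in every CD11c+ library. Xist was present in all 5 libraries.

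Libraries 1 of the ARG1 chimeras and 2 of the IL9R chimeras stood apart in different ways. ARG1 library 1 differed from the other 4 libraries by a median of 0.447 to 0.532 on the log2 scale over 8038 genes, whereas the other pairs differed by 0.203 to 0.271. Its deviation followed transcript length. Genes were split into 5 length classes by their longest annotated transcript. In the class of the 2591 shortest, the median deviation from the mean of the 5 libraries was 0.38 in ARG1 library 1, and in that of the 2591 longest it was -0.32. IL9R library 1 deviated the other way, by -0.21 and 0.18. The log2 fold change between the chimeras accordingly had a median of -0.27 in the shortest and 0.15 in the longest class. In some sums ARG1 library 1 lay near WT CD11c- libraries. The interferon list summed to 6216 CPM, against 2053 to 3160 CPM in other WT CD11c+ and 6287 to 9290 CPM in CD11c- libraries. Chemokine genes summed to 19430, 10090 to 11140 and 18030 to 35150 CPM in the same order. Class II presentation genes did not follow, at 41030, 37650 to 45000 and 11860 to 23520 CPM. The part of CD11c- cells in this library was not tested. IL9R library 2 was high in alveolar macrophage markers, described below.

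**Figure D1:**
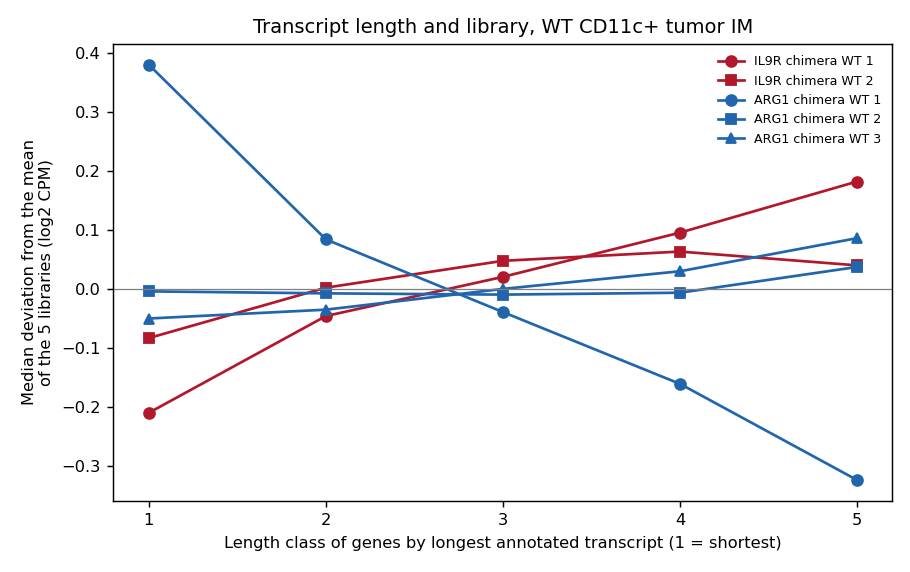
Median deviation of each library from the mean of the 5 libraries (log2 CPM, y axis) in 5 classes of genes ordered by longest annotated transcript (x axis, 1 is the shortest). ARG1 library 1 descends from 0.38 to -0.32, IL9R library 1 ascends from -0.21 to 0.18, and the other libraries stay closer to 0.

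Most inflammatory cytokine genes were higher in IL9R chimeras, among them Il6 and Il1a. Il6, a cytokine of acute inflammation (chromosome 5, 30013114 to 30019981, mm10), measured 82.97 and 103 CPM in IL9R libraries and 14.5, 10.3 and 18.9 CPM in ARG1 libraries. The lowest IL9R library was over 4 times the highest ARG1 library. The log2 fold change of Il6 was 2.67 (SE 0.50), the largest among the 20 genes of smallest p described here, with an edgeR adjusted p of 0.204. Il1a, an alarm cytokine of the interleukin-1 family (chromosome 2, 129299610 to 129309972), measured 427 and 424 CPM in IL9R libraries and 119, 97.4 and 126 CPM in ARG1 libraries. Its libraries were close to each other within each chimera, and the log2 fold change was 1.90 (SE 0.50, edgeR adjusted p = 0.393). Without both libraries that stood apart, the log2 fold change was 2.52 for Il6 and 1.95 for Il1a.

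Several other members of the cytokine list followed the same order. Tnf, a cytokine that activates NF-kB in its target cells, measured 557 and 529 CPM in IL9R and 315, 152 and 213 CPM in ARG1 libraries (log2 fold change 1.26, SE 0.42). Trem1, a receptor that amplifies inflammatory signals, measured 123 and 139 CPM in IL9R and 67.2, 38.9 and 53.0 CPM in ARG1 libraries (1.30, SE 0.40). Neither gene overlapped between the chimeras. Il12b, a subunit of interleukin-12, measured 11.4 and 11.1 CPM in IL9R and 0.418, 2.00 and 3.66 CPM in ARG1 libraries. Il23a, a subunit of interleukin-23, measured 9.71 and 7.78 CPM in IL9R and 1.98, 0.715 and 3.20 CPM in ARG1 libraries. Nlrp3, the sensor of an inflammasome, measured 71.3 and 63.1 CPM in IL9R and 50.02, 27.9 and 40.9 CPM in ARG1 libraries. These 3 genes did not overlap either, but other members did not separate the chimeras in this direction. Il1b overlapped, at 2453 and 1831 CPM in IL9R and 1852, 600.4 and 1221 CPM in ARG1 libraries. Il10, an inhibitory cytokine, had a log2 fold change of 0.04. Ebi3 and Il27, which together form interleukin-27, were lower in both IL9R libraries than in all ARG1 libraries (-0.57 and -0.99).

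Of 18 measured cytokine genes, 14 had a positive and 4 a negative log2 fold change, with a median of 0.64 against -0.002 over all genes tested. In 9 of them the IL9R libraries lay above all ARG1 libraries and in 2 below. No member passed the adjusted threshold in either direction, and 7 were higher at an unadjusted p under 0.05. The cytokine median was 0.88 without both libraries that stood apart, and 0.40 without ARG1 library 2, where 12 were positive and 6 negative. Neutrophil markers were also higher in IL9R chimeras, with 13 of 13 positive and a median of 0.84. They summed to 367 and 520.3 CPM in IL9R libraries and 276, 204 and 346 CPM in ARG1 libraries, without overlap. The neutrophil median was 0.25 without IL9R library 2, and the part of such cells in the cytokine values was not tested.

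Among 16 NF-kB subunits and feedback genes the picture was divided. Rel, an NF-kB subunit, measured 30.7 and 25.7 CPM in IL9R and 14.6, 15.0 and 11.3 CPM in ARG1 libraries (log2 fold change 1.05, SE 0.34). Tnfaip3, an enzyme that dampens NF-kB signaling, measured 571 and 517 CPM in IL9R and 261, 240 and 345 CPM in ARG1 libraries (0.95, SE 0.33). These 2 genes did not overlap, whereas Rela (-0.02) and Nfkbia (0.06) showed almost no difference in mean. The list's median was 0.08, with 12 positive and 4 negative. In 5 of the 16 the IL9R libraries lay above all ARG1 libraries and in 0 below. The median was 0.65 without both libraries that stood apart, with 16 of 16 positive. It was 0.09 without ARG1 library 2, with 8 positive and 8 negative. Egr3, an immediate early transcription factor, measured 16.3 and 15.3 CPM in IL9R and 4.41, 3.26 and 3.82 CPM in ARG1 libraries (2.05, SE 0.44). Its list of 22 immediate early and heat shock genes had 7 positive and 15 negative log2 fold changes (median -0.08). Fos, a subunit of AP-1, measured 2684 and 2333 CPM in IL9R and 3845, 3546 and 3865 CPM in ARG1 libraries (-0.58, SE 0.18). The IL9R libraries lay below all ARG1 libraries for Fos and above them for Egr3.

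**Figure D2:**
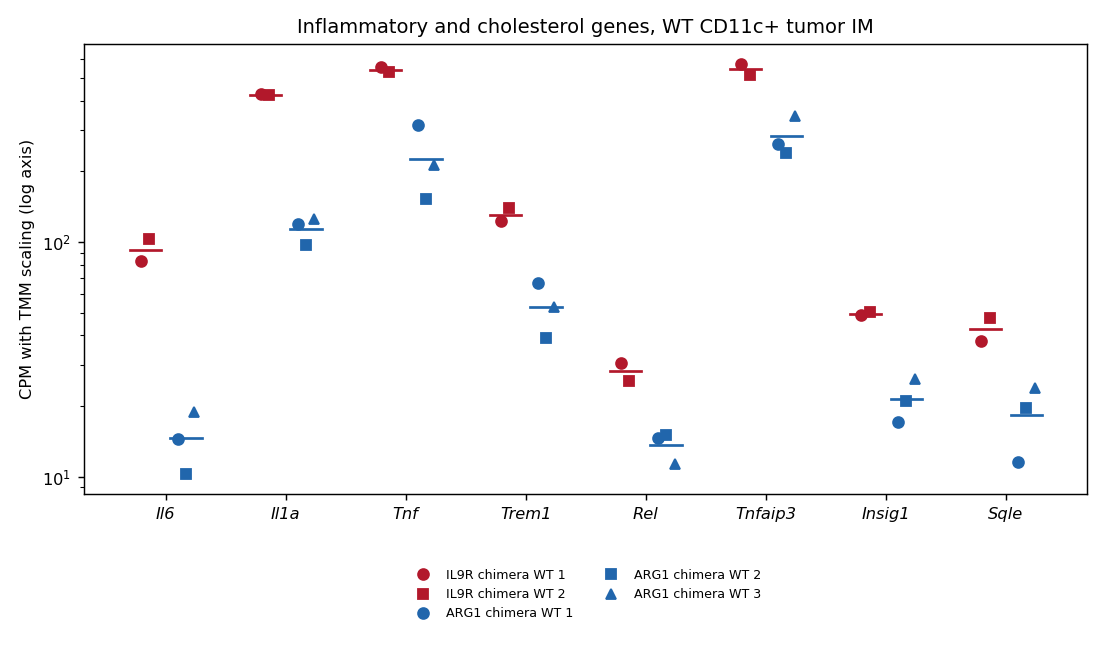
Level of 8 cytokine, NF-kB and cholesterol genes in each library (CPM with TMM scaling, log axis), IL9R chimeras in red and ARG1 chimeras in blue, with short lines at the group means. For every gene drawn, both IL9R libraries lie above all ARG1 libraries, from 82.97 and 103 against at most 18.9 CPM for Il6 to 38.0 and 47.3 against at most 23.8 CPM for Sqle.

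Genes of cholesterol and fatty acid synthesis were also higher in IL9R chimeras. Cells make the enzymes of this pathway under the control of SREBP transcription factors when sterols are low. Insig1, which holds SREBP back in the endoplasmic reticulum, measured 48.8 and 50.3 CPM in IL9R and 17.2, 21.1 and 26.2 CPM in ARG1 libraries (log2 fold change 1.20, SE 0.29). The enzyme Sqle measured 38.0 and 47.3 CPM in IL9R and 11.6, 19.7 and 23.8 CPM in ARG1 libraries (1.22, SE 0.33). For both genes the IL9R libraries lay above all ARG1 libraries. Cyp51, a later enzyme of the pathway, measured 49.9 and 62.8 CPM in IL9R and 17.3, 27.6 and 34.4 CPM in ARG1 libraries (1.09, SE 0.38). Its libraries did not overlap either. The genes of the SREBP factors themselves differed little, with 0.20 for Srebf2 and -0.10 for Srebf1.

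Of 27 measured genes of this list, 25 had a positive log2 fold change (median 0.50). In 12 of them the IL9R libraries lay above all ARG1 libraries and in 0 below, and 6 were higher at an unadjusted p under 0.05. No member passed the adjusted threshold. The median was 0.44 without IL9R library 2, with 19 positive and 8 negative. It was 0.34 without both libraries that stood apart, with 20 positive and 7 negative. The median longest transcript of the list was 4299 bases, in the fourth length class. All genes of that class had a median log2 fold change of 0.10, and those of the longest class 0.15.

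Interferon-induced genes were lower in IL9R chimeras, and most of that distance came with ARG1 library 1. Oas2, an enzyme that senses double-stranded RNA (chromosome 5, 120730333 to 120749853), measured 4.61 and 1.81 CPM in IL9R and 15.4, 9.65 and 11.0 CPM in ARG1 libraries. Its log2 fold change was -1.89 (SE 0.38, edgeR adjusted p = 0.235), and -1.66 without ARG1 library 1. Ifi27l2a, another interferon-induced gene, measured 280.2 and 236 CPM in IL9R and 2110.3, 541 and 505 CPM in ARG1 libraries. The groups did not overlap, but ARG1 library 1 alone was near 4 times the other ARG1 libraries. The log2 fold change of Ifi27l2a was -2.03 (SE 0.58), and -1.01 without that library. Rtp4 measured 85.5 and 69.5 CPM in IL9R and 248, 103 and 123 CPM in ARG1 libraries (-1.02, SE 0.39), and -0.53 without ARG1 library 1. Oas1a measured 146 and 108 CPM in IL9R and 379, 139.7 and 161 CPM in ARG1 libraries, so the groups overlapped (-0.84, SE 0.33), and the value was -0.23 without that library. Oas1a has close paralogs, and how reads shared between them were counted was not stated.

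Of 34 interferon response genes, 26 had a negative log2 fold change (median -0.52). In 8 of them the IL9R libraries lay below all ARG1 libraries and in 0 above, and 11 were lower at an unadjusted p under 0.05. The median was -0.13 without ARG1 library 1, and 0.03 without both libraries that stood apart, where 18 genes were positive and 16 negative. Some defining members did not follow: Ifit1 had a log2 fold change of 0.26 and Ifit2 of 0.50.

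Genes of tissue-resident, perivascular macrophages were lower in IL9R chimeras. Folr2, a folate receptor that marks such cells, measured 82.4 and 79.5 CPM in IL9R and 565, 146 and 155 CPM in ARG1 libraries (log2 fold change -1.83, SE 0.55). Cbr2, a carbonyl reductase, measured 61.1 and 57.6 CPM in IL9R and 275, 137 and 138 CPM in ARG1 libraries (-1.62, SE 0.40). Both genes were highest in ARG1 library 1, yet the other ARG1 libraries also lay above the IL9R libraries. Without ARG1 library 1 the values were -0.88 for Folr2 and -1.20 for Cbr2. Of 15 genes of this list 12 had a negative log2 fold change (median -0.59, and -1.04 without IL9R library 2). In 6 the IL9R libraries lay below all ARG1 libraries and in 0 above. Lyve1 itself did not follow the list, at 0.989 and 3.54 CPM in IL9R and 0, 1.41 and 0.778 CPM in ARG1 libraries, which overlapped (1.59, SE 0.95). Folr2 and Cbr2 were higher in CD11c- cells: in WT CD11c- libraries Folr2 measured 346 and 674 CPM in IL9R and 893, 662 and 604 CPM in ARG1 chimeras. The share of such cells in each CD11c+ library was not tested. Here and for all cell type markers, fewer cells of a type and less RNA per cell cannot be told apart in bulk libraries.

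The complement genes C1qa, C1qb and C1qc, which IM make in quantity, were lower by a log2 fold change of -0.62 to -0.68. C1qb measured 4676 and 4645 CPM in IL9R and 10648, 6428 and 5333 CPM in ARG1 libraries. The log2 fold change of C1qb was -0.32 without ARG1 library 1. Pex10, a factor of peroxisome assembly (chromosome 4, 155067016 to 155072433), was among the genes with the smallest p. It measured 2.32 and 1.56 CPM in IL9R and 9.29, 8.27 and 7.78 CPM in ARG1 libraries (-2.12, SE 0.41, edgeR adjusted p = 0.204).

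**Figure D3:**
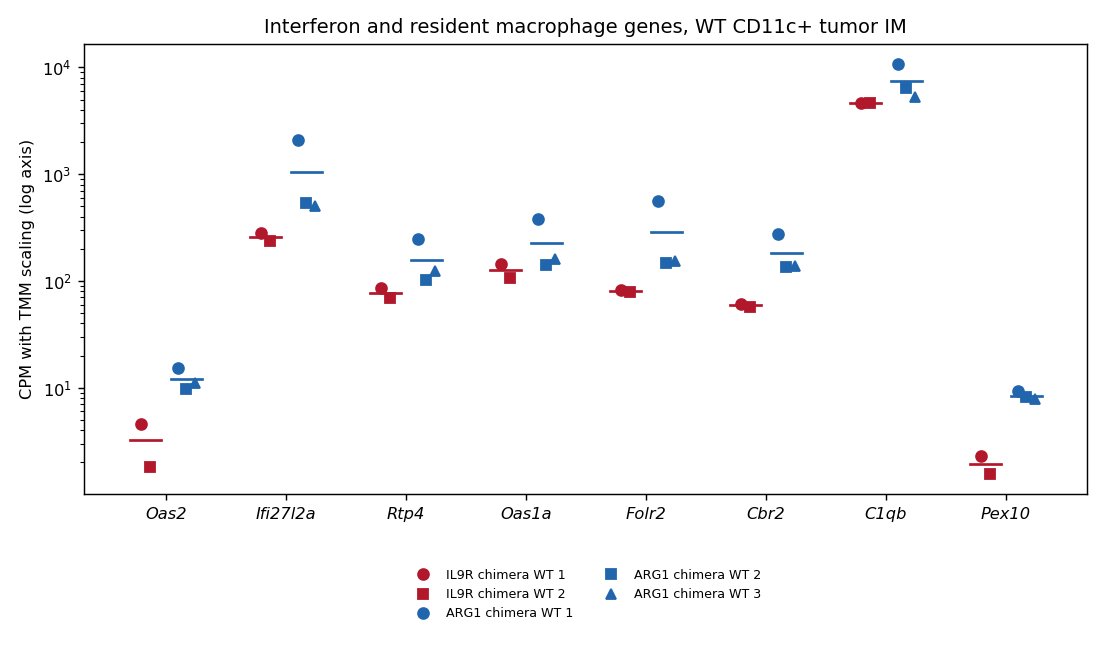
Level of 8 interferon, resident macrophage, complement and peroxisome genes in each library (CPM with TMM scaling, log axis), IL9R chimeras in red and ARG1 chimeras in blue, with short lines at the group means. ARG1 library 1 (blue circle) is the highest library for all 8 genes, and for Oas1a the groups overlap.

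Most respiratory chain genes encoded in the nucleus were lower by a small amount. Of 32 genes 28 had a negative log2 fold change (median -0.35), and in 19 the IL9R libraries lay below all ARG1 libraries, with 2 above. Ndufa4 measured 95.7 and 101 CPM in IL9R and 194, 140.06 and 134 CPM in ARG1 libraries (-0.67, SE 0.24). Cox7b measured 104 and 110.03 CPM in IL9R and 172, 146 and 144 CPM in ARG1 libraries (-0.53, SE 0.20). Of the 32 genes, 23 belong to the shortest length class, whose median over all genes was -0.27. The list's median was -0.19 without ARG1 library 1. Genes of glycolysis and hypoxia had a median of -0.27 over 29 genes. In 12 of them the IL9R libraries lay below all ARG1 libraries and in 2 above. The median was -0.02 without both libraries that stood apart, with 14 positive and 15 negative. The same contrast gave -0.28 in WT CD11c- IM and -0.24 in mutant CD11c+ IM. Ldha, which makes lactate, measured 2063 and 2181 CPM in IL9R and 4582, 2356 and 2270.4 CPM in ARG1 libraries.

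Alveolar macrophage markers were higher in IL9R chimeras, and IL9R library 2 was the highest by far in their sum. The summed level of the 21 markers was 1625 and 8782 CPM in IL9R libraries and 832, 1322 and 1712 CPM in ARG1 libraries. IL9R library 1 lay within the range of the ARG1 libraries. Chil3, a chitinase-like protein, measured 682 and 5943 CPM in IL9R and 407, 501 and 769 CPM in ARG1 libraries. Its log2 fold change was 2.57 (SE 0.67), and 0.29 without IL9R library 2. Car4, a carbonic anhydrase that marks alveolar macrophages, measured 7.62 and 59.4 CPM in IL9R and 0.948, 1.81 and 2.60 CPM in ARG1 libraries (4.21, SE 1.19), and 2.08 without IL9R library 2. Cidec, a lipid droplet protein, measured 0.989 and 12.4 CPM in IL9R libraries and had 0, 0 and 1 reads in ARG1 libraries. For Car4 and Cidec, IL9R library 1 also lay above all ARG1 libraries. Siglecf and Marco were lower than Chil3 in every library. Siglecf measured 4.56 and 8.28 CPM in IL9R and 3.60, 1.19 and 0.743 CPM in ARG1 libraries, so both IL9R libraries lay above all ARG1 libraries. Marco measured 1.28 and 2.26 CPM in IL9R and 1.00, 1.43 and 14.5 CPM in ARG1 libraries, which overlapped. Of the 21 genes 19 had a positive log2 fold change (median 1.80), and 13 were higher at an unadjusted p under 0.05. In 10 of them both IL9R libraries lay above all ARG1 libraries, and in 0 below. The median was 0.47 without IL9R library 2. Without that library the log2 fold change was 2.51 for Il6 and 1.91 for Il1a. The part of alveolar macrophages in the other differences was not tested.

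**Figure D4:**
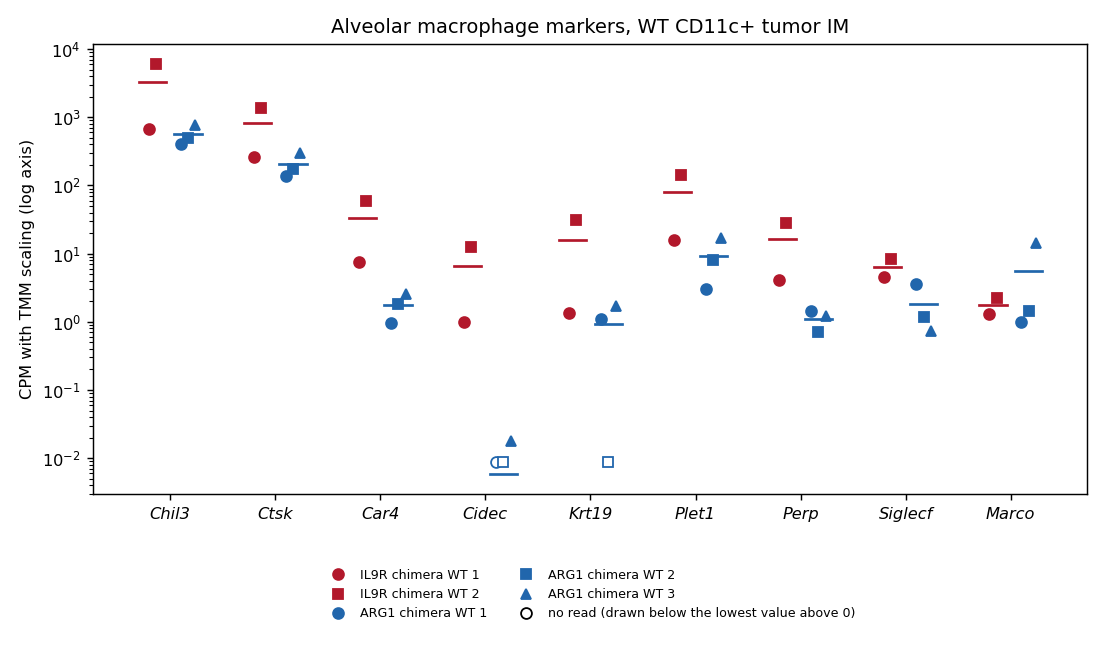
Level of 9 alveolar macrophage markers in each library (CPM with TMM scaling, log axis), IL9R chimeras in red and ARG1 chimeras in blue, with short lines at the group means and open symbols for libraries without a read. IL9R library 2 (red square) is the highest library for every gene drawn except Marco, where ARG1 library 3 is highest at 14.5 CPM.

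Neither gene for which the chimeras are named passed the test. Arg1 (chromosome 10, 24915221 to 24927484) measured 1029 and 1039.9 CPM in IL9R and 2866, 1074 and 1232 CPM in ARG1 libraries. Both IL9R libraries lay below all ARG1 libraries, narrowly below library 2. ARG1 library 1 was more than 2 times any other library, and the log2 fold change of Arg1 was -0.74 (SE 0.59, edgeR adjusted p = 0.678), or -0.14 without it. Il9r had no read in any of the 5 libraries, where 3 counts would correspond to 0.0527 to 0.0831 CPM. Of 12 genes of arginine uptake and breakdown, 6 were positive and 6 negative (median 0.03). Slc7a2, an arginine transporter that is also in the alveolar list, measured 42.4 and 112 CPM in IL9R and 13.9, 31.99 and 29.9 CPM in ARG1 libraries (1.61, SE 0.50), and 0.74 without IL9R library 2. Of 15 genes of IL-9 reception and JAK-STAT feedback, 7 were positive and 7 negative, and Il9r was at 0. Cish, a feedback inhibitor that STAT5 induces, measured 58.5 and 64.5 CPM in IL9R and 39.3, 17.7 and 33.8 CPM in ARG1 libraries (1.02, SE 0.44). Stat5a (-0.17) and Socs3 (-0.18) were close to no difference. Ptprc, the congenic marker CD45, measured 387 and 310 CPM in IL9R and 113, 282 and 286 CPM in ARG1 libraries.

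The same chimera contrast was available in libraries that the comparison did not use, which could still come from the same animals. In WT CD11c- IM, with 2 IL9R and 3 ARG1 libraries, edgeR again called 0 genes (1201 at an unadjusted p under 0.05; DESeq2 68), but 67 without IL9R CD11c- library 2. Il6 measured 65.4 and 52.1 CPM in IL9R and 35.3, 9.69 and 30.8 CPM in ARG1 CD11c- libraries (log2 fold change 1.22, SE 0.49). Il1a measured 837 and 242 CPM in IL9R and 250.4, 65.1 and 134 CPM in ARG1 CD11c- libraries (1.85, SE 0.50). The cytokine list had a median of 0.59, the cholesterol list of 0.18 and the interferon list of 0.02 there. The neutrophil markers were positive for 13 of 13 genes there too (median 0.83), and their part was not tested. The test of the difference between the CD11c+ and CD11c- contrasts called 0 genes. At an unadjusted p under 0.05 there were 490, where 672 would be expected if no gene differed, and DESeq2 called 15. The subsets cannot be taken as independent. Deviations of CD11c+ and CD11c- libraries with the same chimera kind and number correlated at 0.282 in IL9R chimeras. With 2 libraries in each IL9R group the deviations mirror each other, so both numbers give this 1 value. In ARG1 chimeras the correlations were 0.352, 0.32 and 0.0463. With chimera kind and number as a random block the difference between the CD11c+ and CD11c- contrasts again gave 0 calls (618 at an unadjusted p under 0.05). Oas2 had the smallest p in it: in CD11c- libraries it measured 46.6 and 30.9 CPM in IL9R and 24.0, 28.6 and 22.5 CPM in ARG1 chimeras. The order of the chimeras was the opposite of that in CD11c+ cells, and the difference of the log2 fold changes was -2.53 (SE 0.50, edgeR adjusted p = 0.548).

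In the mutant CD11c+ IM, 3 libraries labelled Il9r KO were set against 2 labelled Arg1 CKO, so that chimera kind and mutation cannot be told apart. Il9r had 4.10, 2.87 and 1.75 CPM in the libraries labelled Il9r KO, against 1.85 and 0 CPM in those labelled Arg1 CKO and no read in WT cells. The labels do not state which part of the gene was removed. Il6 measured 90.4, 111 and 44.1 CPM in libraries labelled Il9r KO and 11.0 and 24.3 CPM in those labelled Arg1 CKO (log2 fold change 2.21, SE 0.54). Il1a measured 425, 438 and 374 CPM in libraries labelled Il9r KO and 90.4 and 141 CPM in those labelled Arg1 CKO (1.83, SE 0.54). Neither gene passed the test. List medians there were 0.70 for cytokines, 0.67 for cholesterol, -0.57 for interferon, -0.30 for respiratory chain and 2.10 for alveolar macrophage genes. The alveolar markers summed to 2794, 10400 and 16060 CPM in libraries labelled Il9r KO and 3211 and 2346 CPM in those labelled Arg1 CKO, and the neutrophil markers had a median of 0.77. The part of either in those medians was not tested.

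Of the 10 genes of smallest p that were higher in WT IL9R CD11c+ cells (among them Il6, Egr3, Mtmr10, Ap3m2, Vopp1, Wsb1, Vcl, Abcc4 and Insig1), 8 had the same sign in CD11c- cells and 10 in the mutant cells. In 4 and 7 of them the libraries did not overlap, where all genes gave 13.5% and 13.0%. Of the 10 that were lower (Pex10, Oas2, Coa4, Nme4, Fcrl1, Dtx2, Cbr2, Batf2, Oxld1 and Rgl1), 9 had the same sign in CD11c- cells and 9 in the mutant cells. In 5 and 8 of them the libraries did not overlap, where all genes gave 12.2% and 11.6%. All 20 kept their sign in the WT CD11c+ comparison without both libraries that stood apart. They had been chosen for libraries that do not overlap there, so the sign could hardly change. At least 0.67 of the log2 fold change was kept by 15 of them.

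The mutant comparison called 9 genes (0.067% of those tested), 6 higher and 3 lower, and none of them passed in WT cells. It called 21 genes without Il9r KO library 1 and 4 without Il9r KO library 2 or Arg1 CKO library 1. Wdfy1, which was higher in the mutant comparison at 80.3, 64.0 and 58.9 CPM in libraries labelled Il9r KO and 5.24 and 5.94 CPM in those labelled Arg1 CKO, measured 10.3 and 7.78 CPM in WT IL9R and 8.87, 11.2 and 4.81 CPM in WT ARG1 libraries. Dynlt1b, which fell there by 4.23 on the log2 scale, measured 4.52 and 5.86 CPM in WT IL9R and 10.3, 7.12 and 6.33 CPM in WT ARG1 libraries (-0.61, SE 0.35). G530011O06Rik, which fell by 3.54, measured 37.1 and 18.2 CPM in WT IL9R and 96.3, 65.7 and 43.6 CPM in WT ARG1 libraries (-1.31, SE 0.49). The WT libraries overlapped for Wdfy1 and did not for Dynlt1b and G530011O06Rik. Lyz2, the lysozyme gene of macrophages, rose by 1.96 in the mutant comparison and had a log2 fold change of 0.28 (SE 0.31) in WT cells. Dynlt1b and Lyz2 have close paralogs, and reads could have been divided among them in counting.

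**Figure D5:**
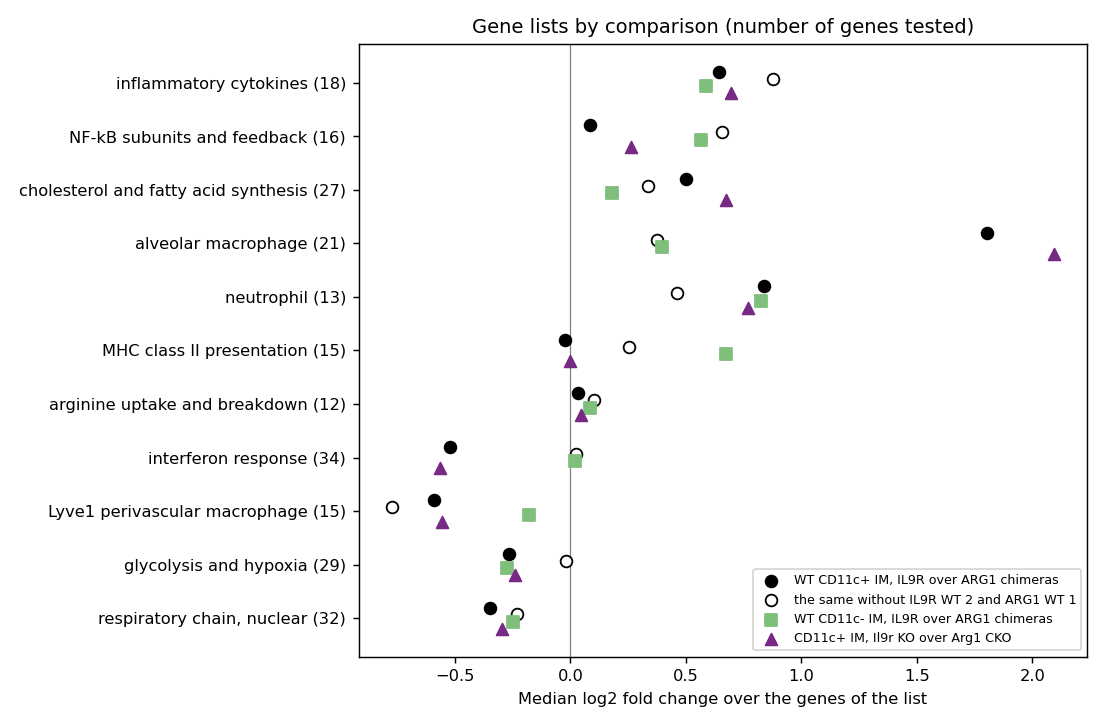
Median log2 fold change (x axis) of 11 gene lists (y axis, number of genes tested in brackets) in WT CD11c+ IM (black circles), in the same cells without IL9R library 2 and ARG1 library 1 (open circles), in WT CD11c- IM (green squares) and in mutant CD11c+ IM (purple triangles). The inflammatory cytokine list lies between 0.59 and 0.88 in all 4, whereas the interferon list lies at -0.52 in WT CD11c+ IM and at 0.03 without those 2 libraries.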

How the data were processed

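PolyA RNA of sorted macrophages was sequenced (SMART-seq v4 and Nextera XT libraries, per the labels' protocols). The deposited table holds raw read counts per gene for 25 libraries. Per the submitters' processing notes, the authors used FastQC 0.11.5, STAR 2.7.10a, featureCounts and Subread 2.0.3 with mm10. Annotation, strand setting and gene filter: not given in the sources used here. The genes were identified by symbol. All libraries carry 1 batch label, and no label names an animal. The p-values thus describe the spread between libraries, which may be technical.

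Counts of the 21 tumor libraries (8 groups) were fitted in R 4.3.3 by edgeR 4.0.16. Low genes were removed with filterByExpr (48 of 13482), libraries were scaled by TMM, and the robust quasi-likelihood test was two-sided, with Benjamini-Hochberg adjustment over 13434 genes. There were 13 residual degrees of freedom and a biological coefficient of variation of 49.2%. Single-gene levels are CPM with TMM scaling, and summed marker levels are CPM of the library totals. DESeq2 1.42.0, limma 3.58.1 (voom), other scalings, no filter, replicate blocks and leaving out libraries were alternatives, and leaving out ARG1 library 1 together with IL9R library 2 was chosen after seeing the data. The fit was tested on simulated data. The floor given for Il9r covers counting error only. Each SE is the absolute log2 fold change divided by the square root of the F value of the quasi-likelihood test. It thus includes the spread between libraries.

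Genes were named by rule: Arg1, Il9r, Itgax and Ptprc, any called gene, the 10 genes of smallest p in each direction (mean of at least 5 CPM, no overlap), and up to 4 members per list of smallest p. Other members were named after their values were seen. There were 41 lists, 13 of them cell type markers. The comparison, members and lists were chosen with earlier results of these data known. Positions and transcript lengths came from GENCODE vM21 for 12952 of the genes tested (96.4%), and promoter windows from RefSeq for 46 of 60 named genes. Some named genes are not reported here.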

Additional observations from a re-analysis of the deposited data

How the results depend on the processing

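All 60 named genes followed kept their direction in WT CD11c+ IM under 15 alternatives each. Many had been chosen for libraries that do not overlap in this comparison, so leaving out libraries could hardly reverse them. Members named above as not following their list, such as Il1b, Il10, Ifit1 and Lyve1, were not among the 60. Of the 60, 22 passed the adjusted threshold under at least 1 alternative, 21 of these with DESeq2. DESeq2 called 64 genes in WT CD11c+ IM, 68 in WT CD11c- IM, 15 in the difference between these and 116 in the mutant CD11c+ comparison. With the contrasted groups fitted alone there were 2 calls in WT CD11c+ IM and 2 in the mutant comparison. Leaving out 1 library gave 0 calls in WT CD11c+ IM and 0 for the difference between subsets. It gave 0 to 67 calls in WT CD11c- IM (67 without IL9R CD11c- library 2) and 4 to 21 in the mutant comparison (21 without Il9r KO library 1, 4 without Il9r KO library 2 or Arg1 CKO library 1). RLE size factors, upper quartile scaling, no filter on low counts and voom left the count at 0 in both WT comparisons and at 6 to 9 in the mutant one. The cause of these differences was not tested. Medians of some lists turned sign when libraries were left out. For NF-kB genes they ran from -0.0352 (without IL9R CD11c+ library 1) to 0.654 (without ARG1 library 1 and IL9R library 2). For interferon genes they ran from -0.799 (without IL9R library 1) to 0.0259 (without ARG1 library 1 and IL9R library 2). Leaving out that pair was added after seeing the data. Medians of other lists turned too: that of dendritic cell markers was 0.30, and -0.11 without IL9R library 1, and that of class I presentation genes was -0.20, and 0.09 without ARG1 library 1.

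Whether the label numbers pair the chimeras could not be settled. Deviations of libraries with the same number correlated at -0.0925 and -0.0308 over 8019 genes. The deviations of the IL9R libraries mirror each other, so crossed numbers gave 0.0308 and 0.0925, and these values cannot decide it. With the number as a replicate block there were 0 calls in WT CD11c+ IM (1850 genes at an unadjusted p under 0.05) and 8 in the mutant comparison. With chimera kind and number as a random block there were 0 and 6.

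The groups held 2 and 3 libraries, and 1 of each stood apart. Where a fit left 1 library in a group, that library was assumed to vary like the other groups.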

Other observations

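Markers of other cells that a CD11c+ gate can hold were also measured. Of 13 neutrophil genes, 13 had a positive log2 fold change in WT CD11c+ IM (median 0.84), with summed levels of 367 and 520.3 CPM in IL9R libraries and 276, 204 and 346 CPM in ARG1 libraries, and the median was 0.46 without both libraries that stood apart and 0.25 without IL9R library 2. Monocyte markers summed to 4769 and 8819 CPM in IL9R and 3402, 2570.0 and 3840.0 CPM in ARG1 libraries, a list that also holds Chil3. T and NK cell markers summed to 38.2 and 79.7 CPM in IL9R and 19.5, 28.6 and 44.9 CPM in ARG1 libraries. Dendritic cell markers summed to 893 and 631 CPM in IL9R and 637, 805 and 656 CPM in ARG1 libraries. Their part in the other differences was not tested.

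Genes of DNA replication and mitosis had a median log2 fold change of -0.39 over 30 genes, with 22 negative. In 4 of them the IL9R libraries lay below all ARG1 libraries and in 0 above, where all genes tested gave 12.9% and 12.4%. The count below was thus close to that of all genes. Without ARG1 library 2 the median was -0.01, with 15 positive and 15 negative. Class II antigen presentation genes had a median of -0.02 over 15 genes in CD11c+ IM and 0.67 in CD11c- IM. The monocyte chemokines were highest in ARG1 library 1: Ccl2 measured 735 and 520.4 CPM in IL9R and 2362, 918 and 675 CPM in ARG1 libraries, and its log2 fold change was -0.33 without that library.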
